A study of Salmo salar with 189 samples.

Results

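The entries described here are those for casein kinase 1 delta (CKId) and casein kinase 1 epsilon (CKIe) in a panel of Atlantic salmon clock transcripts. They were taken by name, which gave 6 of the 48 entries in the table: CKId-Ch1, CKId-Ch28, CKIe-Ch1, CKIe-Ch3, CKIe-Ch6 and CKIe-Ch28, where Ch is the chromosome. RNA was counted with a NanoString CodeSet, in which a fluorescent barcode marks each bound target molecule, and the values are barcode counts normalised to spike-in controls. Juvenile pre-smolt salmon of about 45 g were raised in constant light, held on a short photoperiod for weeks at 14 °C, and fasted for 48 h before and then throughout sampling. From 64 fish came 63 samples each of gill, of the optic tectum (OT), a visual centre of the midbrain, and of the saccus vasculosus (SV), an organ below the hypothalamus.

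The groups were as follows. Fish in constant darkness (DD) were taken at 8 time points from CT1 to CT29, in hours after the last expected lights-on. Fish in the other arm were taken under the light-dark cycle (LD) from ZT5 to ZT21, then at CT1 and CT5 with lights on, and then in constant light (LL) from CT9 to CT29. The samples at CT1 and CT5 with lights on carry the label LL but also close the diel cycle, and they were used both as the end of the diel series (ZT5 to the next ZT5, 21 samples) and as the lit group at those hours. Each time point had 3 fish, and LL and DD each had 18 samples per tissue from CT9 to CT29. The arms were kept in separate tanks, so darkness and tank cannot be told apart. The fish gave whole tissue, in which fewer cells of a type and less RNA per cell cannot be told apart. No cell type markers were in the panel, so the dissected tissues could not be checked against any.

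Casein kinase 1 delta and epsilon are closely related serine/threonine kinases. In mammals they, and in flies their homologue, phosphorylate the PERIOD (PER) proteins, which act with the CRYPTOCHROMEs (CRY) as the repressors of the clock, and so set how long PER lasts in the cell. In hamsters, a mutation of the epsilon kinase shortens the circadian period. The kinases act through their protein activity, and their transcripts are not known for strong daily rhythms in mammalian tissues. Salmon hold several copies of each kinase because the salmonid genome was duplicated after the duplication shared by all teleosts.

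Each tissue has 4 of the 6 entries, under different names. The OT has CKId-Ch1, CKId-Ch28, CKIe-Ch3 and CKIe-Ch6, the SV has CKId-Ch1, CKId-Ch28, CKIe-Ch1 and CKIe-Ch28, and the gill has CKId-Ch28, CKIe-Ch1, CKIe-Ch3 and CKIe-Ch6. The list of probe targets that belongs to the CodeSet names 4 kinase targets of 46 in all, and CKId-Ch1 and CKIe-Ch28 are not among them. In the SV, CKIe-Ch1 and CKIe-Ch28 may therefore stand for CKIe-Ch3 and CKIe-Ch6, and the entry called CKId-Ch1 in the OT and SV may be another of the listed targets. In the OT, CKIe-Ch1 is the only listed target that does not appear under its own name. CKId-Ch1 there may thus be an epsilon entry, the one given as not expressed in the gill. Entries are used under the names they carry, and comparisons between tissues were made only where the name is the same. All 6 names matched a RefSeq gene of the assembly Ssal_v3.1, from which names and gene order were taken and nothing else. CKIe-Ch6 carries the symbol kc1e there and the others have locus numbers.

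The 4 listed targets are stretches of 100 bases each. The first 30 bases of each are shown, 5′ to 3′, because the identity of the entries turns on these targets.
CKId-Ch28: agatctgcgaccttttttcccagagacatt
CKIe-Ch1: aatgatggtggacaatgtaataaaggacct
CKIe-Ch3: ggtaggtcggtaaggtcaaagcaaccatgc
CKIe-Ch6: gctaattctctactttagccctctttggaa
Over their full length, the longest run of bases shared by any pair of these targets was between 6 and 10, and the duplicates CKIe-Ch3 and CKIe-Ch6 shared at most 6. Their GC content was 39% to 46%. The epsilon genes have a neighbour in common: the gene order of Ssal_v3.1 puts a Tef gene, which encodes a PAR bZIP transcription factor, 11 protein-coding genes from CKIe-Ch1, 10 from CKIe-Ch28, 12 from CKIe-Ch3 and 16 from CKIe-Ch6.

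All 4 entries of the OT and of the SV and 3 of the gill were in the tests, which ran over 42 entries in the OT and 40 each in the SV and the gill. CKIe-Ch1 in the gill is given as not expressed and was left out. Its signal ran from 1 to 8.97 with a median of 3.15, against medians from 1.94 to 3.74 for the 5 other entries given as not expressed there. Depth differed between tissues. Sample values are whole multiples of a step that undoes the normalisation, and an OT sample held 23602 to 50352 steps, an SV sample 1385 to 20679 and a gill sample 3767 to 14716. The SV sample of fish 3 at CT21 in LL stands apart, because its values were scaled up 8.14-fold from the 1385 steps.

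In the OT, 3 entries had similar signals and the other was lower. CKIe-Ch6 had a median of 1398 (1130 to 1874, lowest to highest of 63 samples), CKIe-Ch3 1189 (976 to 1802), CKId-Ch28 1119 (815 to 1481) and CKId-Ch1 382 (269 to 608). CKIe-Ch6 was above CKId-Ch28 in every sample and above CKIe-Ch3 in all but 2, whereas CKId-Ch28 exceeded CKIe-Ch3 in 19 of 63. In the SV, CKIe-Ch28 had a median of 888 and CKIe-Ch1 of 851, CKId-Ch28 had 520 and CKId-Ch1 only 65.2. The epsilon entries of the SV could not be put in order, since CKIe-Ch1 was the higher in 26 of 63 samples. In the gill, the medians were 600 for CKId-Ch28, 424 for CKIe-Ch6 and 327 for CKIe-Ch3, and CKId-Ch28 was above CKIe-Ch3 in every sample. These orders hold for signal and not for transcript number, because probes differ in efficiency.

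The clearest change was in the OT entry CKId-Ch1, which was higher in DD than in the lit arm at the same hours. At CT1, its signal was 453, 608 and 476 in DD, against 406, 322 and 335 with lights on. At CT5, it was 485, 537 and 530 in DD, against 314, 303 and 332 with lights on. All 6 dark fish lay above all 6 lit fish. On the scale of log2 of signal plus 1, the difference was 0.62 (SE 0.11), or 1.53-fold, with an adjusted p of 0.00097 by limma over all entries.

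**Figure D1:**
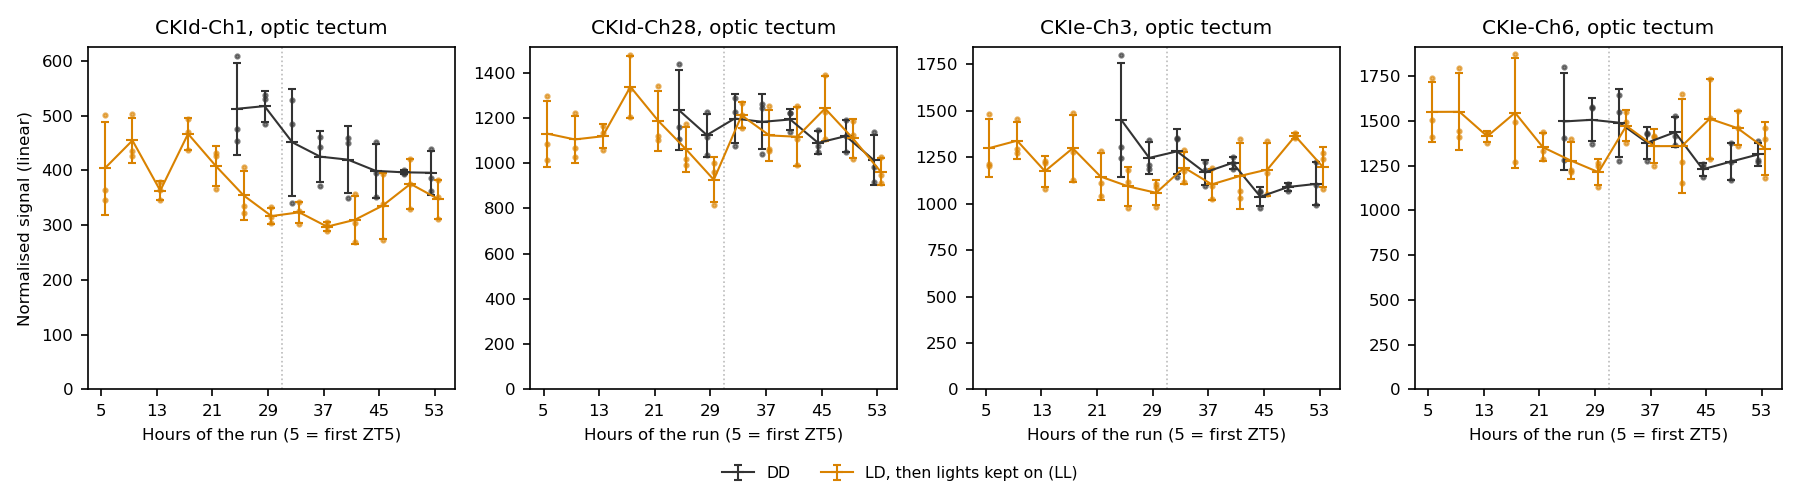
Normalised signal (linear axis from 0) of the 4 kinase entries of the OT against hours of the run, where 5 is the first ZT5, 25 is CT1 and 53 is CT29. Points are fish, lines join means and bars are the SD of 3 fish, in DD (black) and in LD and then with lights kept on (orange), and the dotted line marks the start of the CT9 to CT29 window. CKId-Ch1 in DD had means of 512 and 517 at CT1 and CT5, against 354 and 317 with lights on.

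CKId-Ch1 was also higher in DD than in LL from CT9 to CT29. Its signal ran from 341 to 528 in DD with a median of 398, against 269 to 421 in LL with a median of 328. The groups overlapped, with 8 of 18 dark fish above every fish in LL and 11 of 18 fish in LL below every dark fish. The difference was 0.32 (SE 0.063), or 1.25-fold (limma, adjusted p = 7.59e-05). In DD the time point means were 517 ± 28.4 at CT5, 451 ± 97.9 at CT9, 399 ± 49.8 at CT21 and 396 ± 39.9 at CT29 (SD, n = 3), each lower than the one before it. In LL they were lowest at CT13 (297 ± 8.25) and highest at CT25 (375 ± 45.8). In the LD fish, the dark hours before the split had means of 455 ± 41.4 at ZT9, 363 ± 16.9 at ZT13, 467 ± 28.7 at ZT17 and 408 ± 37.2 at ZT21. The lit ZT5 of these fish had 364, 501 and 345 (mean 404 ± 85.2), which lies among the means of the dark hours. The lit CT1 and CT5 that close the diel series had means of 354 ± 45.2 and 317 ± 14.8, below each of these dark means. Against the first lit ZT5 the entry was thus not clearly higher in the dark. Against the closing lit hours its dark means were higher.

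The other entries of the OT moved less. CKIe-Ch3 was 1245, 1802 and 1303 at CT1 and 1206, 1344 and 1188 at CT5 in DD, against 1118, 1183 and 976 at CT1 and 1088, 980 and 1107 at CT5 with lights on. Its groups did not overlap, but the gap was narrow and fish 2 at CT1 in DD stood far above the rest. The difference was 0.31 (SE 0.11, limma, adjusted p = 0.0406). Leaving out any one replicate ended the call, with differences of 0.21 to 0.39 and adjusted p-values of 0.067 to 0.212 by limma. CKIe-Ch6 had 1284 to 1800 in DD and 1130 to 1398 with lights on, a difference of 0.26 (adjusted p = 0.0648). CKId-Ch28 had 1035 to 1437 in DD and 815 to 1175 with lights on, a difference of 0.25 (adjusted p = 0.078). At CT1 and CT5, 2 of the 4 kinase entries were called, both higher in DD, while of all 42 entries 35.7% were called, 33.3% higher and 2.38% lower in DD. That share rests on 15 calls, and 2 to 11 were left without any one replicate. Both called entries were also free of overlap, as were 14.3% of all entries.

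From CT9 to CT29, CKId-Ch1 was the 1 kinase entry of 4 called in the OT, where 50% of all entries were called, 11.9% higher and 38.1% lower in DD. CKIe-Ch6 differed by -0.07 between DD and LL, CKIe-Ch3 by -0.06 and CKId-Ch28 by 0.01, and their 95% intervals were -0.17 to 0.04, -0.16 to 0.04 and -0.08 to 0.10.

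**Figure D2:**
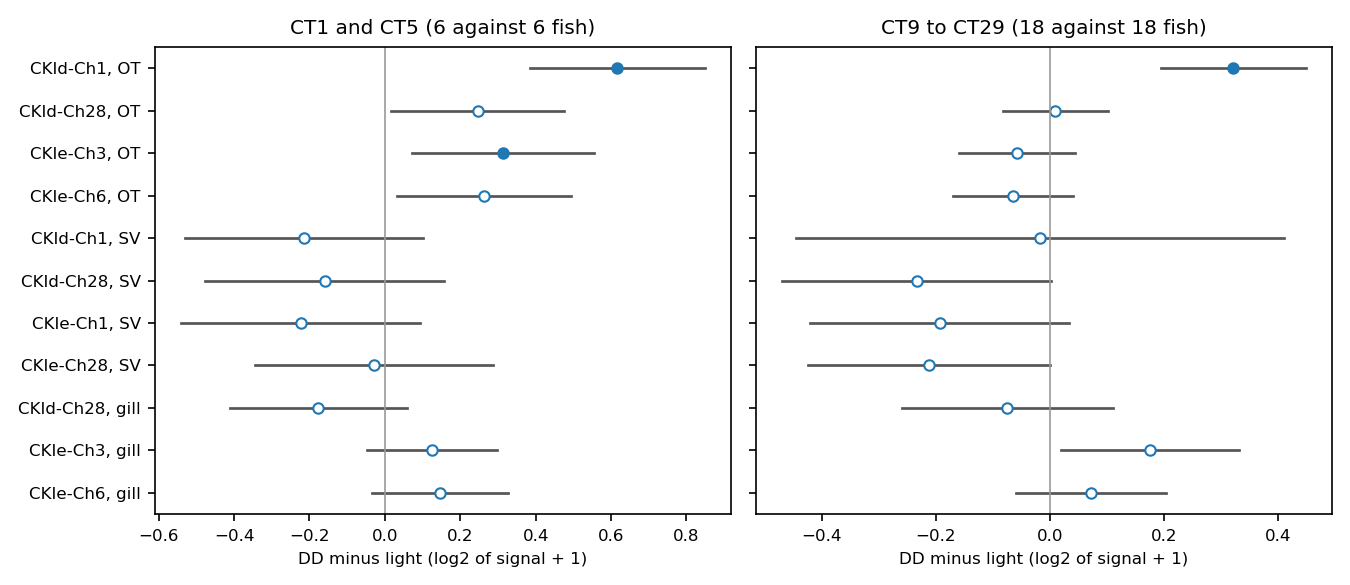
Difference in level between DD and light (log2 of signal + 1) for each kinase entry tested, at CT1 and CT5 (left) and from CT9 to CT29 (right). Points are limma estimates with 95% intervals, and filled points passed an adjusted p of 0.05 over all entries of the tissue. CKId-Ch1 in the OT was filled in both panels, at 0.62 and 0.32, and CKIe-Ch3 in the OT in the left panel, at 0.31.

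The OT signal as a whole also shifted between the arms, which bears on these values. The geometric mean of all tested entries was higher in DD by 0.19 on the log2 scale at CT1 and CT5, and from CT9 to CT29 DD minus light was -0.13. When each sample was divided by that geometric mean, CKId-Ch1 remained higher in DD, by 0.43 at CT1 and CT5 (limma, adjusted p = 0.00122) and by 0.45 from CT9 to CT29 (limma, adjusted p = 5.79e-09). After the same scaling CKIe-Ch3 was higher by 0.13 at CT1 and CT5 (adjusted p = 0.0727), and from CT9 to CT29 CKId-Ch28, CKIe-Ch3 and CKIe-Ch6 were called higher in DD by 0.14, 0.07 and 0.07 (limma, adjusted p = 2.02e-04, 0.0479 and 0.0348), the last pair with the sign turned. Under that scaling the calls at CT1 and CT5 were 7 entries higher and 5 lower in DD, compared with 14 higher and 1 lower as deposited. From CT9 to CT29 they were 18 higher and 9 lower, compared with 5 higher and 16 lower.

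Ratios within a sample do not depend on such a shift. The log2 ratio of CKId-Ch1 to CKIe-Ch6 lay between -1.57 and -1.50 in the 6 dark fish of CT1 and CT5, against -2.12 to -1.59 in the 6 lit fish, without overlap. The difference of 0.35 had an exact permutation p of 0.005, the smallest that 400 ways of permuting allow. The ratio of CKId-Ch1 to CKId-Ch28 lay between -1.29 and -1.07 in DD, against -1.86 to -1.32 with lights on, also without overlap (difference 0.37, exact permutation p = 0.005). For the ratio to CKIe-Ch3 the groups overlapped (difference 0.30, exact permutation p = 0.025). From CT9 to CT29 the ratio of CKId-Ch1 to each of the other 3 entries was higher in DD than in LL, by 0.31 for CKId-Ch28, 0.38 for CKIe-Ch3 and 0.39 for CKIe-Ch6, each at the smallest p that 100000 resamples give (1e-05). The ratio of CKIe-Ch3 to CKIe-Ch6 averaged -0.23 ± 0.06 in DD and -0.24 ± 0.11 in LL (SD, n = 18), a difference of 0.01 (permutation p = 0.774). These p-values are two-sided and unadjusted, and 30 such ratios were computed over the 3 tissues.

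**Figure D3:**
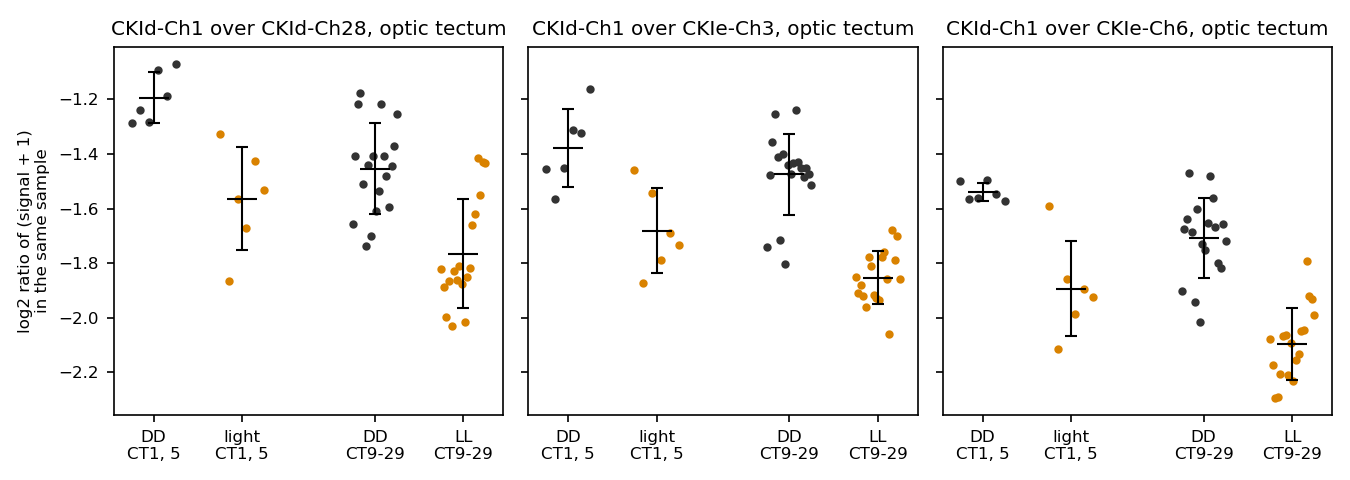
Log2 ratio of CKId-Ch1 to each other kinase entry within the same OT sample, in DD (black) and in light (orange), for 6 fish each at CT1 and CT5 and 18 fish each from CT9 to CT29. Points are fish and bars are mean and SD. The ratio to CKIe-Ch6 was between -1.57 and -1.50 in DD at CT1 and CT5, above every fish with lights on.

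Daily rhythms of the kinase entries were small in the OT. In the diel series of the OT, CKId-Ch28 passed the JTK_CYCLE test (adjusted p = 0.0313), with a 24 h amplitude of 0.16 (SE 0.047) on the log2 scale and a peak at 17.2 h after lights-on. Its signal was 1481, 1327 and 1206 at ZT17, the time of the highest mean, and 1003, 815 and 963 at the closing ZT5, the time of the lowest, so that each fish at ZT17 was above each at the closing ZT5. At the first ZT5, however, it was 1083, 1295 and 1015, which overlaps with ZT17. That p is adjusted over the 11 curves of 1 entry. The call was lost with Benjamini-Hochberg over all entries (0.0731), by the limma cosinor (0.0608) and without any one replicate (0.0805 to 0.565). Thus 1 of 4 kinase entries was called, and 42.9% of all OT entries were. CKId-Ch1, CKIe-Ch3 and CKIe-Ch6 had diel amplitudes of 0.14, 0.10 and 0.11, with adjusted p-values of 0.268, 1 and 0.728.

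In constant conditions none of the 4 OT entries was called by JTK_CYCLE, in LL or in DD, where 31% and 21.4% of all entries were. At an unadjusted p under 0.05, the smallest over the 11 curves, there were 2 of 4 in each condition. Of all 42 entries 23 in LL and 22 in DD had such a p. The limma cosinor called no kinase entry, and 13 of all 42 entries in LL and 14 in DD. The 4 kinase entries had amplitudes of 0.04 to 0.15 in LL and 0.07 to 0.12 in DD. CKIe-Ch3 had peaks at 1.82 h in LL and 11.5 h in DD, but neither passed (adjusted p = 0.133 and 0.262). With each sample divided by its geometric mean, CKId-Ch1, CKIe-Ch3 and CKIe-Ch6 were called in LL, and CKIe-Ch3 and CKIe-Ch6 in place of CKId-Ch28 in the diel series. The shares of all entries above are as deposited. Those after scaling are not given here, so these calls cannot be set against the panel.

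JTK_CYCLE called 0 of 4 kinase entries of the SV rhythmic. Of all 40 SV entries it called 17.5% over the diel cycle, 0% in LL and 2.5% in DD. With each sample divided by its geometric mean, CKIe-Ch1 and CKIe-Ch28 were called in DD (JTK_CYCLE, adjusted p = 0.0199 for both). The share of all entries called in DD after that scaling is not given here. At an unadjusted p under 0.05, the smallest over the 11 curves, there was 1 kinase entry over the diel cycle, with 0 in LL and 1 in DD. Of all 40 entries 21, 3 and 10 had such a p in these series. The limma cosinor called no kinase entry, and 11, 0 and 0 of all 40 entries in these series. CKId-Ch1 had the largest diel amplitude of the 4, 0.47 (SE 0.19), but did not pass (JTK_CYCLE, adjusted p = 0.507). The median diel amplitude over all SV entries was 0.245. CKId-Ch28 had a diel amplitude of 0.14 (SE 0.07) and a highest mean of 635 ± 37.6 at ZT17. CKIe-Ch1 and CKIe-Ch28 were both highest at ZT9 in the diel series, with 1021 ± 66.6 and 1004 ± 34.5.

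CKId-Ch1 in the SV was the most scattered kinase entry. Its signal ran from 31.3 to 232, and the SD of log2 values among fish of the same time point was 0.66, against 0.26 to 0.30 for the other SV entries and 0.17 for CKId-Ch1 in the OT. At ZT17 the fish had 81.1, 200 and 218, at CT13 in DD 221, 40.0 and 188, at CT13 in LL 209, 54.6 and 128, and at CT17 in DD 73.5, 232 and 35.9. High and low fish thus stood side by side at the same hour. Fish at CT1 and CT5 in DD, by contrast, all lay between 41.6 and 65.2. The entry held 11 to 318 steps per sample (median 69), and the part of counting error in its scatter was not tested.

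Other SV transcripts scattered with it. Over 63 samples, the deviations of CKId-Ch1 from its time point means correlated with those of the 3 transcripts most like it at r = 0.80 (Rora-Ch16), 0.76 (Dbp-Ch14) and 0.74 (Arntl1a-Ch16), and with CKId-Ch28 at r = 0.69, CKIe-Ch28 at r = 0.48 and CKIe-Ch1 at r = 0.45. These values share libraries and depth. Rorb-Ch20, with r = 0.63, had a median signal of 14.8 over SV samples and 1042 over OT samples. Rora-Ch16 had 84.9 and 2326. SV values of Rorb-Ch20 were highest, at 76.5, 71.9 and 67.4, for fish 1 of CT13 DD, CT13 LL and ZT9. Their CKId-Ch1 was 221, 209 and 231. Fish 2 of CT17 DD, with the highest CKId-Ch1 (232), had a Rorb-Ch20 of 20.95. Whether neighbouring brain entered these samples was not tested.

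**Figure D4:**
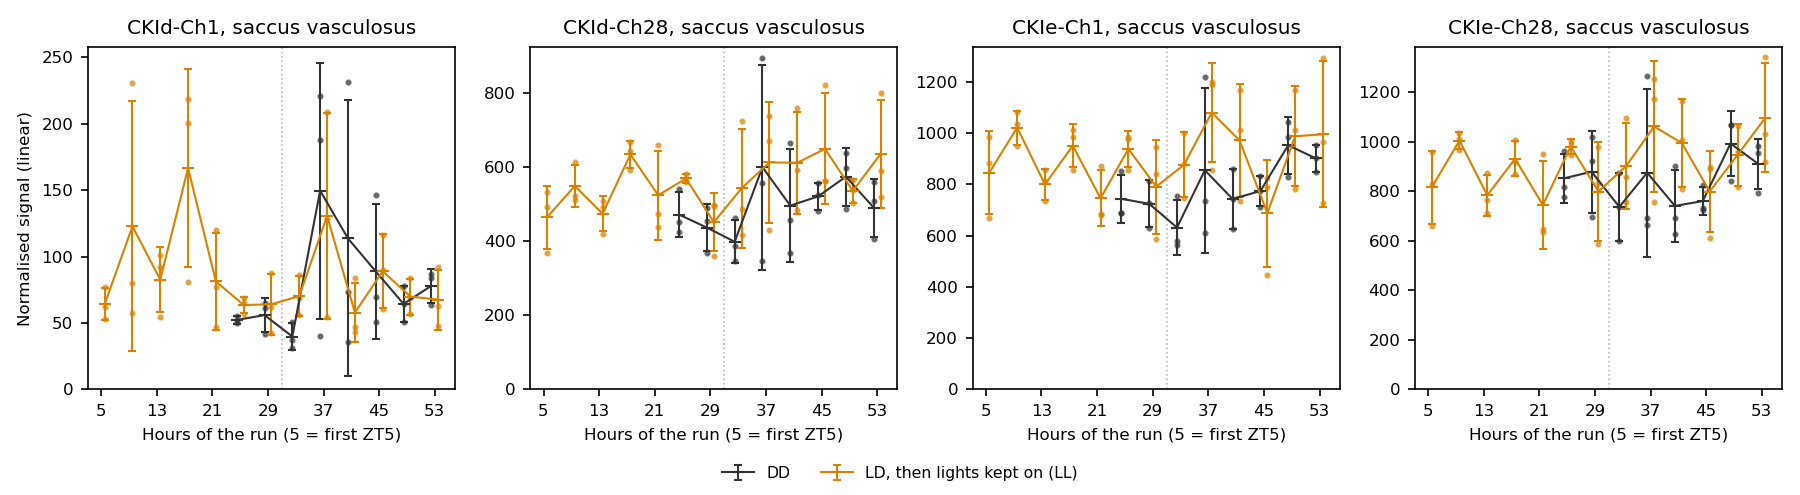
Normalised signal (linear axis from 0) of the 4 kinase entries of the SV against hours of the run, drawn as for the OT: points are fish, lines join means, bars are the SD of 3 fish, DD is black and the lit arm orange. CKId-Ch1 ranged from 31.3 to 232, with wide bars at ZT9, ZT17 and CT13.

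Between DD and light, no kinase entry of the SV passed the limma test. At CT1 and CT5 the difference of CKId-Ch1 was -0.22, with 41.6 to 65.2 in DD and 42.1 to 88.0 with lights on, that of CKId-Ch28 -0.16, of CKIe-Ch1 -0.22 and of CKIe-Ch28 -0.03, with adjusted p-values of 0.387 to 0.953. From CT9 to CT29 CKId-Ch28 had a median of 498 in DD and 565 in LL, a difference of -0.23 (SE 0.12, adjusted p = 0.117). CKIe-Ch28 had 809 in DD and 938 in LL, a difference of -0.21 (SE 0.10, adjusted p = 0.117), and CKIe-Ch1 had 801 in DD and 923 in LL, a difference of -0.19 (SE 0.11, adjusted p = 0.144). CKId-Ch1 differed by -0.02, with an interval of -0.45 to 0.41 that is too wide to tell a difference as large as the 0.32 of the OT from none. In the SV, 17.5% of all entries were called at CT1 and CT5 and 32.5% from CT9 to CT29, all lower in DD. Of the 4 kinase entries 0 were called at either, also by permutation after adjustment. At an unadjusted limma p under 0.05 there were 0 of 4, while 12 of all 40 entries at CT1 and CT5 and 16 from CT9 to CT29 had one. Permutation gave an unadjusted p of 0.0318 for CKIe-Ch28 and 0.0429 for CKId-Ch28 from CT9 to CT29. At CT1 and CT5 its smallest possible p of 0.005 left little room to pass after adjustment. Without fish 3 at CT21 in LL, CKIe-Ch1 and CKIe-Ch28 were called lower in DD, with differences of -0.25 and -0.24 (limma, adjusted p = 0.0476 for both). More of all SV entries were called without that fish too, so the 32.5% above is not the share to set beside these calls. The count over all entries without it is in the last section.

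The SV geometric mean was also lower in DD, with DD minus light of -0.18 at CT1 and CT5 and -0.29 from CT9 to CT29. With samples divided by it, the differences from CT9 to CT29 turned positive for all 4 kinase entries, 0.05 to 0.27, and none passed. The share of the called SV entries that were higher in DD then went to 50% in both windows, with 2 higher and 2 lower at CT1 and CT5 and 1 higher and 1 lower from CT9 to CT29, compared with 0% as deposited (0 higher and 7 lower, 0 higher and 13 lower).

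In the gill, CKIe-Ch3 was called rhythmic in LL (JTK_CYCLE, adjusted p = 0.00755), with an amplitude of 0.32 (SE 0.089) and a peak at 4.85 h. The call was lost with Benjamini-Hochberg over all entries (0.292) and by the limma cosinor (0.268). Its lowest mean was at CT17, where the fish had 266, 146 and 201, against 405, 334 and 314 at CT9 and 392, 312 and 338 at CT25. Of the 3 gill entries 1 was called in LL, and 5% of all 40 entries were. Over the diel cycle and in DD 0 of 3 were called, compared with 12.5% and 2.5% of all entries. At an unadjusted p under 0.05 there were 2 in each. Of all 40 entries 15 over the diel cycle and 12 in DD had such a p. The limma cosinor called 0 of all 40 entries in any series, and so no kinase entry. In DD CKIe-Ch3 had an amplitude of 0.22 and a peak at 4.89 h (adjusted p = 0.211).

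Low values at CT17 or ZT17 were not particular to CKIe-Ch3 or to LL. CKIe-Ch3 had its lowest mean at that hour in each series, with 271 ± 106 at ZT17, 204 ± 59.8 at CT17 in LL and 247 ± 84.5 at CT17 in DD (SD, n = 3). CKIe-Ch6 was lowest there too, with 346 ± 112, 352 ± 67.9 and 351 ± 85.2. CKId-Ch28 was lowest there in the diel series and LL, with 504 ± 169 and 452 ± 186, but in DD it had 507 ± 90.1 at CT17 and its lowest mean at CT29. At each of these times 1 fish had the lowest total gill signal of the time point, 4785 at ZT17, 3850 at CT17 in LL and 5327 at CT17 in DD, against a median of 8635 over the gill, and these were the fish with the lowest CKIe-Ch3. Their part in the low values was not tested beyond leaving them out. Without these 3 samples CKIe-Ch3 in LL had an adjusted p of 0.030 by JTK_CYCLE. Without replicate 1 of each time point its adjusted p was 0.208.

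**Figure D5:**
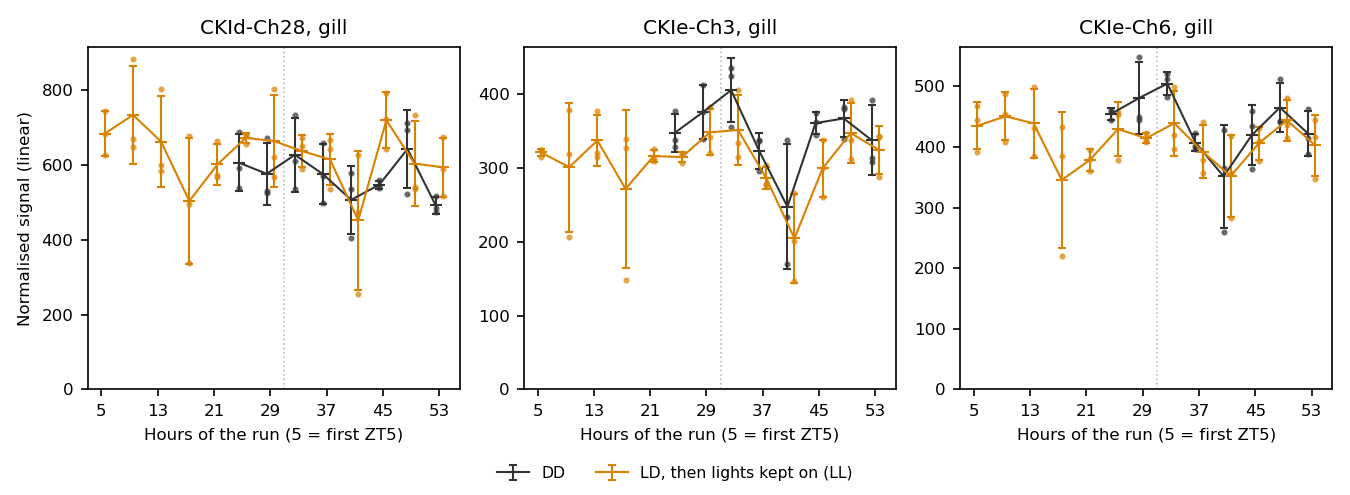
Normalised signal (linear axis from 0) of the 3 kinase entries tested in the gill against hours of the run, drawn as for the OT, with DD in black and the lit arm in orange and bars for the SD of 3 fish. CKIe-Ch3 dipped at 17 h in the light-dark cycle (271), in LL (204) and in DD (247), with single fish far below the others.

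No kinase entry of the gill passed the test of DD against light by limma. CKIe-Ch3 came closest, from CT9 to CT29, with 170 to 435 in DD (median 342) and 146 to 405 in LL (median 307), a difference of 0.18 (SE 0.077, adjusted p = 0.104). CKIe-Ch6 differed by 0.07 and CKId-Ch28 by -0.07. At CT1 and CT5 the differences were 0.12 for CKIe-Ch3, 0.15 for CKIe-Ch6 and -0.18 for CKId-Ch28, with adjusted p-values of 0.245 to 0.285. In the gill 15% of all entries were called from CT9 to CT29 and 7.5% at CT1 and CT5. Of the kinase entries 1 of 3 from CT9 to CT29 and 0 of 3 at CT1 and CT5 had an unadjusted limma p under 0.05. Of all 40 entries 11 had one in each window. After adjustment permutation called no kinase entry. Its unadjusted p was 0.0192 for CKIe-Ch3 from CT9 to CT29 and 0.025 for CKIe-Ch6 at CT1 and CT5. At CT1 and CT5 its smallest possible p of 0.005 left little room to pass after adjustment. Without the 3 gill samples of low signal CKIe-Ch3 was called from CT9 to CT29, at 0.17 (limma, adjusted p = 0.0312), and with samples divided by their geometric mean at 0.22 (limma, adjusted p = 0.00805). After that scaling 17.5% of all gill entries were called higher and 10% lower in DD from CT9 to CT29. The share of all entries without the 3 samples is not given here. The log2 ratio of CKId-Ch28 to CKIe-Ch3 in the same sample was 0.75 ± 0.25 in DD and 1.00 ± 0.22 in LL (SD, n = 18), a difference of -0.25 (permutation, unadjusted p = 0.00148).

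The DD minus light difference of CKId-Ch1 was not the same in the OT and the SV at CT1 and CT5. The difference between tissues, OT minus SV, was 0.83 (SE 0.20, limma, adjusted p = 0.00396), and of the 38 entries shared by these tissues 18.4% passed. From CT9 to CT29 it was 0.34 (SE 0.23, adjusted p = 0.35), and 15.8% of all were called. For CKId-Ch28 the difference at CT1 and CT5 was 0.41 (adjusted p = 0.0723), and it passed when the tissues were compared within each fish (replicate block, 0.41, limma, adjusted p = 0.0389). At these hours the geometric mean of all tested entries also moved apart, with DD minus light of 0.19 in the OT and -0.18 in the SV. The test between tissues was run on deposited values only, so the part of this shift in both differences was not tested. Shares of all entries under the block are not given here. For CKIe-Ch3 the difference between OT and gill from CT9 to CT29 was -0.23 (adjusted p = 0.0556), and it too passed within fish (replicate block, -0.27, limma, adjusted p = 0.0313), where 17.9% of all 39 shared entries passed without the block. At CT1 and CT5 0 of 3 kinase entries passed between OT and gill, and 2.56% of all did. Between SV and gill CKId-Ch28 did not pass at either, with 11.1% of all at CT1 and CT5 and 19.4% from CT9 to CT29.

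No difference in diel amplitude between tissues passed the test for any kinase entry. The amplitude of CKId-Ch1 was 0.14 for OT and 0.47 for SV, a difference of -0.33 (permutation, p = 0.0391, adjusted p = 0.186), and 10.5% of all shared entries were called. CKId-Ch28 had an amplitude of 0.16 in OT, 0.14 in SV and 0.19 in gill, with adjusted p-values of 0.433 to 0.88 for the differences. For OT and gill CKIe-Ch3 had 0.10 and 0.10 and CKIe-Ch6 had 0.11 and 0.16, with adjusted p-values of 0.989 and 0.592. Between OT and gill 20.5% of all shared entries were called and between SV and gill 0%.

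The balance among the kinase entries differed between tissues. The log2 ratio of CKIe-Ch3 to CKIe-Ch6 was -0.23 ± 0.09 in the OT and -0.39 ± 0.19 in the gill (SD, n = 63), a difference of 0.16. The ratio of CKId-Ch28 to CKIe-Ch3 was -0.08 ± 0.14 in the OT and 0.91 ± 0.28 in the gill, and that of CKId-Ch28 to CKIe-Ch6 was -0.31 ± 0.12 in the OT and 0.52 ± 0.23 in the gill. The delta entry thus had 0.945 times the signal of CKIe-Ch3 in OT samples and 1.88 times in gill samples. For CKId-Ch1 to CKId-Ch28 the OT had -1.54 ± 0.24 and the SV -2.81 ± 0.55, a difference of 1.27. All 4 ratios passed at the smallest adjusted p that the resamples allow (permutation, adjusted p = 1.34e-05), but most pairs of clock transcripts passed too, 92.9% between OT and SV, 87.5% between OT and gill and 92.3% between SV and gill. Probe efficiency cancels in these differences only where the same probe stands behind a name in both tissues.

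The curves of the epsilon duplicates could not be told apart within a tissue. Each curve was divided by its mean, and curves were compared by an F test of polynomials and by a permutation test that swaps the members within each fish (replicate block). For CKIe-Ch3 and CKIe-Ch6 in the OT, p was 0.968 over diel and LL (permutation 0.161) and 1.00 over diel and DD (permutation 0.951). In the gill it was 0.838 (permutation 0.164) and 0.972 (permutation 0.734). Their time point means correlated at r = 0.85 in the OT and r = 0.85 in the gill over 21 time points. CKIe-Ch1 and CKIe-Ch28 in the SV gave p = 0.999 in both series (permutation 0.560 and 0.146) and r = 0.87. CKId-Ch1 and CKId-Ch28 in the OT gave p = 0.0131 over diel and LL, above the threshold of 0.01, but the replicate block put it below, with a permutation p of 3e-05. Over diel and DD p was 0.924 (permutation 0.540), and in the SV 0.578 and 0.585 (permutation 0.318 and 0.169). Of 90 curve comparisons over all pairs, 4.44% had a p under 0.01 by the F test. The permutation test was run on the kinase pairs only, so its p of 3e-05 cannot be set against the other pairs. Since CKId-Ch1 may be another listed target, its pair with CKId-Ch28 may not be one of duplicates.

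By likeness of time point means, CKIe-Ch3 and CKIe-Ch6 were each nearest to the other in the OT and in gill samples, so that 4 of 11 tested entries had a kinase as the nearest transcript. After each sample was divided by its geometric mean, the likeness of this pair was r = 0.85 in the OT and 0.66 in gill samples. The other 7 entries were nearest to other clock transcripts. For CKId-Ch1 in the OT these were Rora-Ch16 (r = 0.61, 0.72 after scaling), Rora-Ch26-1 (r = 0.58, 0.67 after scaling) and then CKIe-Ch3 (r = 0.58, 0.73 after scaling), and the least alike was Per2-Ch14 (r = -0.72, -0.76 after scaling), a PER gene. For CKId-Ch1 in the SV the nearest was again Rora-Ch16 (r = 0.83, 0.70 after scaling). For CKId-Ch28 the likeness to the nearest transcript changed most with scaling. It was Dbp-Ch14 in the OT, with r = 0.78 but 0.37 after scaling, and Nr1d2-Ch27 in the SV, with r = 0.87 but -0.14 after scaling. In gill samples it was Rora-Ch10 (r = 0.84, 0.80 after scaling). In the SV CKIe-Ch1 was nearest to Tef-Ch1 (r = 0.88, 0.76 after scaling) and CKIe-Ch28 to Clock-Ch23 (r = 0.93, 0.92 after scaling). These are over 21 time points that share libraries and depth. Fish that deviated in one tissue did not deviate alike in another, with correlations of the same entry between tissues from -0.24 to 0.09 over 62 or 63 fish.

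The PER and CRY transcripts, whose proteins are substrates and partners of these kinases, give a scale for these values. In the diel series of the OT 4 of 5 tested PER entries and 3 of 7 CRY entries were rhythmic by JTK_CYCLE, with median amplitudes of 0.76 and 0.24, beside 0.23 over all entries and 0.10 to 0.16 for the kinases. In the SV 3 of 5 PER and 1 of 7 CRY entries were called, and in the gill 1 of 6 PER and 0 of 7 CRY entries. Over the diel cycle JTK_CYCLE called 42.9% of all OT entries, 17.5% of all SV entries and 12.5% of all gill entries. No CRY count was a larger share than that of all entries from the same tissue. Between DD and light in the OT at CT1 and CT5, 3 of 5 PER entries were called higher and 1 lower in DD (median 0.34), and 1 of 7 CRY entries was called higher (median 0.15), beside a median of 0.26 over all entries. From CT9 to CT29 in the OT 1 PER entry was called higher and 2 lower, and 5 of 7 CRY entries were called lower in DD (median -0.29), whereas CKId-Ch1 was higher. Of all OT entries 33.3% were called higher and 2.38% lower at CT1 and CT5, and 11.9% and 38.1% from CT9 to CT29. These calls are as deposited. From CT9 to CT29 the split over all entries turned to more higher than lower after scaling by the geometric mean.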

How the data were processed

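NanoString barcodes of 189 samples were counted with the study's CodeSet. The deposited signal values are counts that the authors scaled by spiked positive controls with nSolver. Unscaled counts were not used here. Step sizes were read from the low values of each sample. The signal was transformed as log2 of signal plus 1. Entries listed by the study as unexpressed in a tissue had no test there.

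Rhythms were tested with JTK_CYCLE, rewritten in Python 3.11.15 (periods 20 and 24 h, whole-interval shifts, Bonferroni over 11 curves, no adjustment over entries, threshold 0.05), whose null is exact only without equal points. It tends to be too large otherwise. Amplitudes come from a 24 h cosinor. DD was compared with light by limma 3.58.1 (time point as a factor, Benjamini-Hochberg over all entries of the tissue). Ratios and amplitudes were compared by two-sided permutation (100000 resamples, within time points). Curves of pairs were compared by an F test of polynomials of order 6. Scripts were tested on simulated data. The same fish gave the tissues, so a replicate block by fish was an alternative between tissues, and deviations of the same fish in different tissues correlated at -0.24 to 0.09. Whether fish of a group shared a tank beyond their arm is not given in the sources used here.

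Named were the kinase entries and, for each, the 3 most alike and the least alike entry, and also Rorb-Ch20 beside CKId-Ch1 in the SV. The kinase entries and lists were chosen with earlier results of these data known. Ratios of DD against light within a sample were added after the other results. Hours of light before sampling differ between the labels and the methods, and no hour is given here.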

Additional observations from a re-analysis of the deposited data

Results flagged for a closer look

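The DD minus light difference of CKId-Ch1 at CT1 and CT5 differed between OT and SV, by 0.83 on the log2 scale (limma, adjusted p = 0.00396), and within fish the adjusted p was 0.00107 (replicate block). The geometric means of these tissues also moved apart at these hours, and scaled samples were not compared between tissues.

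In 24 groups of 6 fish (CT1 and CT5 of an arm, each entry and tissue), 1 fish lay far from the rest in 4, and chance alone flags about 1 in 20 such groups. These were CKIe-Ch3 in the OT in DD (a fish at 1802), CKIe-Ch6 in the gill in DD (549), CKId-Ch1 in the OT with lights on (406) and CKIe-Ch1 in the SV with lights on (588).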

How the results depend on the processing

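Of the alternatives to the 87 main values, 475 kept their side of the threshold, 17 passed it newly and 13 no longer passed. A further 20 turned the sign and were counted apart, whether or not they passed. Direction was checked for differences only, not for rhythms or curves of pairs. The rise of CKId-Ch1 in the OT in DD passed under every alternative run, with differences of 0.49 to 0.73 at CT1 and CT5 and 0.31 to 0.34 from CT9 to CT29 as each replicate was left out. The cause of the changes below was not tested.

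Dividing each sample by its geometric mean changed most. Adjusted p-values of rhythm became 0.144 for CKId-Ch28, 0.00946 for CKIe-Ch3 and 0.0348 for CKIe-Ch6 in the OT diel series, 0.0106 for CKId-Ch1 and 0.0359 for CKIe-Ch3 and CKIe-Ch6 in OT LL, and 0.0199 for CKIe-Ch1 and CKIe-Ch28 in SV DD. DD minus light became 0.14 for CKId-Ch28 and 0.074 for CKIe-Ch3 and 0.066 for CKIe-Ch6 in the OT from CT9 to CT29, and 0.13 for CKIe-Ch3 at CT1 and CT5. In the SV it became 0.27 for CKId-Ch1, 0.054 for CKId-Ch28, 0.095 for CKIe-Ch1 and 0.077 for CKIe-Ch28 from CT9 to CT29, and 0.018 for CKId-Ch28 and 0.15 for CKIe-Ch28 at CT1 and CT5. For CKIe-Ch3 in the gill from CT9 to CT29 it became 0.22. Amplitude differences became -0.053 for CKId-Ch28 (OT minus SV), and 0.094 for CKIe-Ch3 and 0.0058 for CKIe-Ch6 (OT minus gill).

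CKId-Ch28 in the OT diel series and CKIe-Ch3 in gill LL had adjusted p-values of 0.0731 and 0.292 with Benjamini-Hochberg over transcripts, and 0.0608 and 0.268 by the limma cosinor. Permutation called CKIe-Ch6 in the OT at CT1 and CT5 (0.26). A pseudocount of 10 gave an amplitude difference of 0.0023 for CKIe-Ch3 (OT minus gill). Alternatives added after seeing the data gave -0.25 for CKIe-Ch1 and -0.24 for CKIe-Ch28 without fish 3 of SV LL CT21, and 0.17 for CKIe-Ch3 in the gill from CT9 to CT29 without the 3 gill samples. The replicate block by fish gave 3.0e-05 for the OT curves of CKId-Ch1 and CKId-Ch28 over diel and LL, 0.41 for CKId-Ch28 between OT and SV at CT1 and CT5, and -0.27 for CKIe-Ch3 between OT and gill from CT9 to CT29, and it changed no other call.

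Leaving out each replicate gave adjusted p-values of 0.0805 to 0.565 for CKId-Ch28 in the OT diel series and 0.0499 to 0.208 for CKIe-Ch3 in gill LL. DD minus light ran from 0.21 to 0.39 for CKIe-Ch3 in the OT at CT1 and CT5, and from CT9 to CT29 from -0.00011 to 0.022 for CKId-Ch28 in the OT, -0.075 to 0.068 for CKId-Ch1 in the SV, -0.15 to 0.044 for CKId-Ch28 in the gill and 0.088 to 0.22 for CKIe-Ch3 in the gill. Amplitude differences (OT minus gill) ran from -0.13 to 0.072 for CKId-Ch28, -0.12 to 0.049 for CKIe-Ch3 and -0.17 to 0.033 for CKIe-Ch6, and for CKId-Ch28 (OT minus SV) from -0.015 to 0.077.

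Over all entries, 7 were rhythmic in the SV diel series, with 0 by Benjamini-Hochberg, 11 by the limma cosinor and 17 after scaling. In OT DD there were 9, with 4 by Benjamini-Hochberg and 14 by the limma cosinor. In the SV from CT9 to CT29, 13 were called, 2 after scaling and 21 without the low sample, and in the gill 6 and 11 after scaling. Permutation at CT1 and CT5 called 0 in the SV and the gill, against 7 and 3 by limma. With 400 ways its smallest p was 0.005, so after adjustment over 40 entries it could call only if several reached that floor. In the gill, with 3 limma calls, its 0 calls do not weigh against those of limma. In the SV, 7 entries at the floor would have passed, so not all of the 7 called by limma reached it. There limma gave every SV entry the same SE of 0.161, and 2.5% of all entries were lower in DD without overlap. Without each replicate the counts over all entries were 2 to 11 at CT1 and CT5 in the OT (15 with all), 1 to 6 in the SV (7) and 1 to 3 in the gill (3), and from CT9 to CT29 14 to 21 in the OT (21), 7 to 12 in the SV (13) and 2 to 7 in the gill (6). Rhythm counts were 11 to 14 (18), 6 to 8 (13) and 2 to 9 (9) for OT diel, LL and DD, 1 to 4 (7), 0 (0) and 0 to 4 (1) for the SV, and 0 to 1 (5), 1 to 3 (2) and 0 to 1 (1) for the gill. Shares of all entries called move with these counts. Of the tested kinase entries CKId-Ch1 in the SV had the lowest depth, with 11 steps in its lowest sample.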
